A study of Mus musculus with 12 samples.

Results

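Dnmt1, Uhrf1, Dnmt3a, Dnmt3b, Dnmt3l, Tet1, Tet2 and Tet3, the mouse genes that copy, write and oxidise DNA methylation, were examined for the histone marks H3K27ac and H3K4me1 during gastrulation. These 8 of 21627 protein-coding genes were chosen by name and not by a cut-off on their values, though with earlier results of these data known. The territory of a gene was every base that lay nearer to one of its outer ends than to an end of another protein-coding gene, out to 100 kb. All 8 genes had peaks, 377 in total over 12 peak lists, of which 165 were H3K27ac peaks and 212 were H3K4me1 peaks. Dnmt3a held 153 of them, Tet3 69, Dnmt1 51, Uhrf1 35, Tet2 24, Tet1 17, and Dnmt3b and Dnmt3l 14 each.

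The libraries came from dissociated cells of C57BL/6 embryos of 6 stages set by morphology: pre-streak (Pre_PS, E6.0), early streak (ES, E6.0 and E6.5), mid-streak (MS, E6.0 and E7.0), late streak (LS, E7.0 and E7.25), no allantoic bud (OB, E7.25 and E7.5) and early headfold (EHF, E7.5). Both marks were profiled by CoBATCH, in which an antibody directs the Tn5 transposase to chromatin that carries the mark. Per the labels, the tissue outside the embryo proper was cut away from Pre_PS, ES, MS and LS embryos, and nothing is stated on this for OB and EHF. Each stage and mark had 1 list made from many cells, so differences between stages have no replicate check and no p-value is given, and more cells with a mark cannot be told apart from more mark per cell.

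Methylation of cytosine in CpG dinucleotides is copied after replication by DNMT1, which UHRF1 brings to hemimethylated DNA. DNMT3A and DNMT3B set new methylation, helped by DNMT3L, which has no catalytic activity of its own. The TET enzymes oxidise methylcytosine as the first step of its removal, and the embryo proper regains methylation around implantation, just before gastrulation. H3K27ac marks active promoters and enhancers, and H3K4me1 is best known from enhancers and the flanks of promoters.

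RefSeq (GRCm38.p6, the assembly that mm10 names) lists 15 starts for these genes, numbered here 5′ to 3′ along each gene. The sequences below run from 250 bases before a start through the first 50 bases of the transcript, 5′ to 3′ on the transcribed strand, with every CpG in capitals. They were picked to set starts with few CpG and little mark beside starts with many CpG and both marks in the same family. Dnmt1 start 1 (chr9:20959839-20960138, minus strand) carried almost no mark, and Dnmt1 start 3 (chr9:20952574-20952873, minus strand) carried both marks at all 6 stages.
Dnmt1 start 1: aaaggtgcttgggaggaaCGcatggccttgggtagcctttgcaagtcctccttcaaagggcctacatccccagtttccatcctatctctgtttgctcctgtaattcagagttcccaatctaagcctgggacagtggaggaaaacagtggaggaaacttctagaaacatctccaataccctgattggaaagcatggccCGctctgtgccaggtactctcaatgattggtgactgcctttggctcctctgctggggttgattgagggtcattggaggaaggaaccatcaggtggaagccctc
Dnmt1 start 3: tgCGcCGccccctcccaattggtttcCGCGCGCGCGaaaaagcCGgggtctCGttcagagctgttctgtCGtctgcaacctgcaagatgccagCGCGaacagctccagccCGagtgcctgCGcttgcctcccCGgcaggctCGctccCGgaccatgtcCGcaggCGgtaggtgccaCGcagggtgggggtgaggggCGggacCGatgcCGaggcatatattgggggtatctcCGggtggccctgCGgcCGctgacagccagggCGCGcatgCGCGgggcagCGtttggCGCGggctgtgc

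Of the de novo genes, Dnmt3a start 2 (chr12:3806910-3807209, plus strand) is one of a close pair near the 5′ end, Dnmt3a start 3 (chr12:3891494-3891793, plus strand) lies within the gene, Dnmt3b has a single listed start (chr2:153649199-153649498, plus strand), and Dnmt3l start 3 (chr10:78055085-78055384, plus strand) is the only one of these 4 without H3K27ac.
Dnmt3a start 2: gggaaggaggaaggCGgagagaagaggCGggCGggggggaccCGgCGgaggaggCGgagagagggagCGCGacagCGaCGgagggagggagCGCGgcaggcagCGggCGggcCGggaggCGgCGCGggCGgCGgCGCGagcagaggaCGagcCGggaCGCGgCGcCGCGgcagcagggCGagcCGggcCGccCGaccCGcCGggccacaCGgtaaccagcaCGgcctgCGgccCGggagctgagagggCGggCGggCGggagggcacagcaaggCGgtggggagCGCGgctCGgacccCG
Dnmt3a start 3: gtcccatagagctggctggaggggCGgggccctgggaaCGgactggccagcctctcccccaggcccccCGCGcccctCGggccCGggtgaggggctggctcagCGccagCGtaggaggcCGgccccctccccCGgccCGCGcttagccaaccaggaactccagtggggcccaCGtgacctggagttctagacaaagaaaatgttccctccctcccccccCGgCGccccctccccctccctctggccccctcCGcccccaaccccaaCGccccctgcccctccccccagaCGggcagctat
Dnmt3b start 1: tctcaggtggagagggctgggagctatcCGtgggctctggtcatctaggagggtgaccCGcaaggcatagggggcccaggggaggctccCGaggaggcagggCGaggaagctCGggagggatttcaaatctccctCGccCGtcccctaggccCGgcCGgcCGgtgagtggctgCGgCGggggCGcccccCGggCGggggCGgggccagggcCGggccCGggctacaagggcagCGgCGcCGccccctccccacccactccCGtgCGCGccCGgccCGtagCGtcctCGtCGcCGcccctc
Dnmt3l start 3: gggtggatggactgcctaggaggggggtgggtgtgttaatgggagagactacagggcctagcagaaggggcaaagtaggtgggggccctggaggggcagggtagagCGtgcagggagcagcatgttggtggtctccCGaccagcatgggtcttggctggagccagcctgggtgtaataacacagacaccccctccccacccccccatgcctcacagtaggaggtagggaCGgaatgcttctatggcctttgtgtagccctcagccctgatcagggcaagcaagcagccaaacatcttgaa

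Tet1 (chr10:62887275-62887574, minus strand) and Tet2 (chr3:133544341-133544640, minus strand) are shown because their starts had H3K4me1 but no H3K27ac peak at Pre_PS, while they differ widely in CpG.
Tet1 start 1: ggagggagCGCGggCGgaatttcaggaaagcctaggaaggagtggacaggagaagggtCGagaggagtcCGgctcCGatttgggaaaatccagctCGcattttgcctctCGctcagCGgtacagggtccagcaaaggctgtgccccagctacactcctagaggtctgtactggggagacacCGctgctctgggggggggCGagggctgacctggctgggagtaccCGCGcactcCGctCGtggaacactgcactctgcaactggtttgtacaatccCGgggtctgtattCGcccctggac
Tet2 start 1: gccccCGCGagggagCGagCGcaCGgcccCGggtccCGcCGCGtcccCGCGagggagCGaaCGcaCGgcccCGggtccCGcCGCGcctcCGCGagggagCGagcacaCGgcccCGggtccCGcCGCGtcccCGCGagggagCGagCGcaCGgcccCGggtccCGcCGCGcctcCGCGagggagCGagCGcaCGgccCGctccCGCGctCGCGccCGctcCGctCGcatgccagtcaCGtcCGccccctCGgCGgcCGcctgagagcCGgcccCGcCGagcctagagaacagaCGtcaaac

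The Pre_PS libraries stand apart. Their lists covered 14.3 Mb (H3K27ac) and 23.4 Mb (H3K4me1), against 35.9 to 42.1 Mb and 39.1 to 51.3 Mb at the 5 later stages. The local background solved from their weakest peaks was 0.0499 and 0.0144 fragments, against 0.211 to 0.330 and 0.164 to 0.347 later. In the Pre_PS H3K4me1 list, 67.3% of peaks sat at the lowest fold that the list holds, which equals a pileup of 1 fragment, and 19 of the 31 H3K4me1 peaks of the 8 genes at Pre_PS were of this kind. Values at Pre_PS are therefore given but no direction is read from them. Epiblast and streak markers were covered in each later list. Of 7 visceral endoderm markers, 2 to 3 had no H3K27ac at each of the 5 later stages (Ttr and Afp at all 6), and the summed share of the list was 455, 257, 251, 235, 251 and 299 covered bp per covered Mb from Pre_PS to EHF. The summed H3K27ac share of 6 trophoblast markers was 704, 871, 920, 930, 1032 and 996, highest at OB and EHF, the stages for which no dissection is stated. Their H3K4me1 share was 886, 956, 1002, 940, 966 and 1032, with MS above OB. Hand1 is also among the streak and mesoderm markers and Tfap2c among germ cell markers, so these sums are not specific to trophoblast. The part of such tissue in the differences below was not tested.

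Each of the 8 genes had a start with both marks at each of the 5 later stages, although that of Dnmt3l lies at a peak shared with a neighbour. A start counted as marked where a peak lay within 1 kb. H3K27ac was present at all 6 stages at 9 of the 15 starts, against 41.3% of the 21044 starts of all protein-coding genes. H3K4me1 was present at all 6 stages at 11 of the 15, against 43.8% of all starts. Without peaks at the lowest fold of a list, an alternative added after the data were seen, H3K27ac stayed at 9 of 15 (39.8% of all starts) and H3K4me1 was at 8 of 15 (31.6%). Dnmt1 starts 2 and 3, Uhrf1 starts 1 and 2, and Dnmt3a starts 1 and 2 share 1 region per pair. These counts are therefore of starts, not of separate sites. The starts of Tet1 and Tet2 had H3K27ac at 5 stages, from ES on, and H3K4me1 at all 6. For these starts and Dnmt3a start 3, the Pre_PS H3K4me1 peak is at the lowest fold, 1.97. Dnmt1 start 1, Dnmt3l start 2 and Dnmt3l start 3 were the sparsely marked ones.

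**Figure D1:**
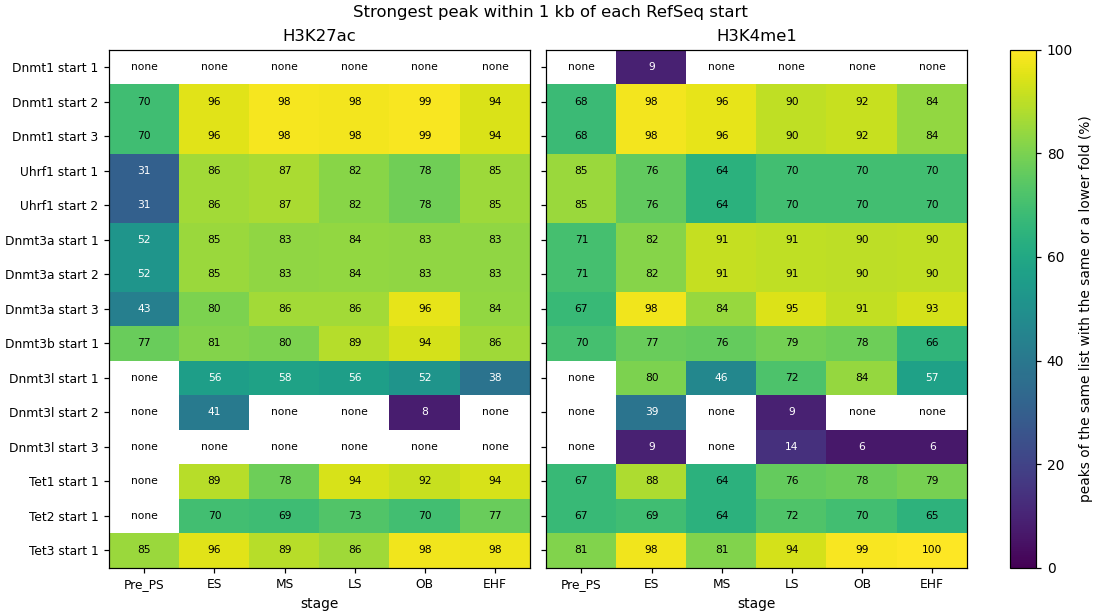
Strongest peak within 1 kb of each of the 15 RefSeq starts (rows, numbered 5′ to 3′) at each stage (columns), as the percent of peaks of the same list with the same or a lower fold, with H3K27ac on the left and H3K4me1 on the right. White cells hold no peak: Dnmt1 start 1 and Dnmt3l start 3 have no H3K27ac at any stage, while the rows of Dnmt1 starts 2 and 3 and Tet3 reach at least 94.4% for H3K27ac at OB and EHF.

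The sparsely marked starts differed from the others in CpG content, which the choice of genes did not use. The 3 sparsely marked starts held 2 CpG (Dnmt1 start 1), 4 CpG (Dnmt3l start 2) and 3 CpG (Dnmt3l start 3) in their 300 bases. Dnmt3l start 1, with 6 CpG, had both marks within 1 kb at 5 stages, but the start base itself was never covered. The 11 remaining starts held 12 to 57 CpG, and all 11 had both marks at the 5 later stages. Dnmt1 start 2 and Uhrf1 start 1, with 12 CpG each, share their region with a start that holds 33. Their marks therefore cannot be set against their own CpG count. The Tet2 window, with 57 CpG, held more CpG than 99.8% of all promoter windows, and Dnmt3a starts 1 and 2 followed with 46 and 47. The median was 18.0 CpG over the 15 windows and 13.0 over 21044.

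The same order was seen over all starts. H3K27ac was present at all 5 later stages at 7.01% of the 5838 starts with 0 to 4 CpG and at 34.6% of the 3147 starts with 5 to 9. The share was 82.8% of 4420 starts with 10 to 19 CpG, 97.6% of 4356 with 20 to 29 and 99.4% of 3283 with 30 or more. H3K4me1 gave 8.74%, 39.3%, 85.7%, 97.6% and 99.5%. How far the signal of either mark at these starts depends on its antibody was not tested. In the class with 0 to 4 CpG, 86.5% of starts had no H3K27ac and 82.2% no H3K4me1 at any stage. All 3 of the sparsely marked starts described here fall in that class, and each had H3K4me1 at 1 to 4 stages. Dnmt3l start 2 also had H3K27ac, at 2 stages. The GC box GGGCGG, searched on both strands, occurred in 12 of the 15 windows (80.0%), against 46.7% of all windows. It was absent from Dnmt1 starts 1 and 2 and from Dnmt3l start 3. The windows of Dnmt3a starts 1 and 2 overlap, so they are not separate counts.

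**Figure D2:**
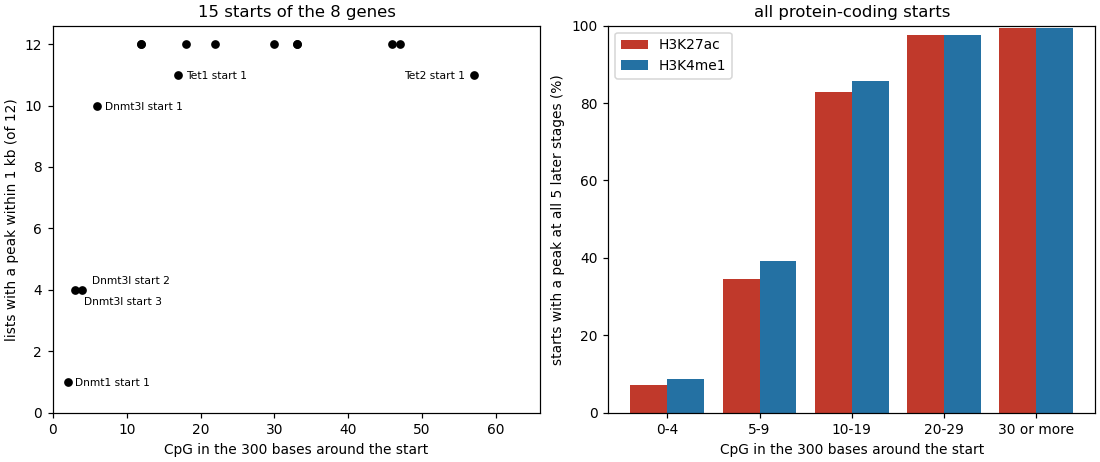
Left, the number of the 12 lists with a peak within 1 kb of each of the 15 starts (y) against CpG in the 300 bases around it (x, 1 point per start, starts under 12 lists named). Right, bars give the percent of all protein-coding starts in each CpG class with a peak at all 5 later stages, by mark: the percentages climb from 7.01% (H3K27ac) and 8.74% (H3K4me1) in the lowest class to 99.4% and 99.5% in the highest.

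Dnmt1, the maintenance methyltransferase (chr 9, minus strand, 52.7 kb), was marked at an inner promoter at every stage, and hardly at its outer 5′ end. Dnmt1 was also marked near its 3′ end at every stage, at Pre_PS only by peaks at the lowest fold of their list. Its first exon is known to differ between oocytes and somatic cells, but the table used does not say which start belongs to which. Starts 2 and 3 share 1 region 7.22 kb into the gene. The strongest H3K27ac fold there was 4.61 at Pre_PS, 18.7 at ES, 20.2 at MS, 28.6 at LS, 24.7 at OB and 25.6 at EHF. The fold is the authors' own value for a peak and is used only within its list, where these peaks exceeded or equalled 69.5%, 95.6%, 98.5%, 98.1%, 99.1% and 94.4% of peaks. The peak was thus among the strongest of every list from ES on. H3K4me1 folds in the same region were 2.01, 14.5, 12.9, 16.7, 16.7 and 13.8.

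Dnmt1 start 1 is the opposite case. No H3K27ac peak lay within 1 kb of it in 6 lists, and its single H3K4me1 peak, at ES, had a fold of 2.53, the lowest in that list. At the 3′ end, a region of 4.82 kb was marked in all 12 lists, with H3K27ac folds of 2.86, 6.06, 4.95, 5.15, 4.64 and 5.23 from Pre_PS to EHF. Its Pre_PS peaks, at 2.86 for H3K27ac and 1.97 for H3K4me1, are at the lowest fold of their lists. At MS its H3K27ac peak lay over 1 kb from the gene end. Inside the gene, a site 16.1 kb from start 1 had H3K27ac at ES, LS, OB and EHF and H3K4me1 at ES, MS, LS and OB. Another, at 34.1 kb, had H3K27ac at ES, MS and LS and at neither OB nor EHF, with H3K4me1 at Pre_PS, ES, LS and OB. Its H3K27ac fold at MS, 3.30, was the lowest that the list holds. Folds at these inner sites stayed between 3.30 and 8.02 at the 5 later stages, below those at the promoter.

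Uhrf1, which encodes the reader of hemimethylated CpG (chr 17, plus strand, 20.1 kb), carried a region 3.78 kb wide over both of its starts in all 12 lists. Its strongest H3K27ac fold was 3.38, 14.0, 14.0, 16.2, 12.4 and 19.1 from Pre_PS to EHF, and its strongest H3K4me1 fold 2.45, 7.85, 6.16, 10.4, 10.1 and 10.7. H3K27ac ranked above H3K4me1 here within the lists of each of the 5 later stages, at 78.2% to 87.3% against 64.0% to 76.1% of peaks. A site 4.98 kb into the gene bore the marks at different stages. It had H3K27ac at LS, OB and EHF (folds 3.99, 4.41 and 3.82) and H3K4me1 at ES, MS and LS (folds 2.53, 3.14 and 4.41), so LS was the one stage with both. The ES value is the lowest that its list holds.

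Dnmt3a, a de novo methyltransferase (chr 12, plus strand, 113 kb), had more marked sites than each of the other 7 genes. Merged over the 12 lists, its peaks formed 24 regions, of which 2 lay at starts, 19 elsewhere inside the gene and 3 outside it. Starts 1 and 2 lie in 1 region 4.03 kb wide. Its strongest H3K27ac fold was 3.97, 13.7, 12.9, 16.9, 14.0 and 18.2 from Pre_PS to EHF, and its strongest H3K4me1 fold 2.10, 9.02, 11.0, 16.9, 16.1 and 15.9.

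Start 3 had a region of its own, 1.23 kb wide and centred 84.6 kb from start 1. Dnmt3a is known to make a shorter isoform from a promoter within the gene. The H3K27ac fold there was 3.72, 12.2, 13.7, 18.2, 20.6 and 18.3 from Pre_PS to EHF, and H3K4me1 gave 1.97, 14.3, 9.50, 19.2, 16.5 and 17.1. Its H3K27ac fold was above that of starts 1 and 2 at MS, LS, OB and EHF (18.3 against 18.2 at EHF) and below it at Pre_PS and ES. Its H3K4me1 fold was above theirs at ES, LS, OB and EHF and below at Pre_PS and MS. H3K27ac covered fewer bases at the inner start. At EHF it covered 0.993 kb within 1 kb of start 3, against 2.00 kb within 1 kb of start 2.

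Away from starts, 6 regions inside Dnmt3a had both marks at all 5 later stages. They were centred 5.44, 27.6, 42.9, 65.6, 89.4 and 102 kb from start 1. The region at 65.6 kb had the highest H3K27ac folds of the 6, with folds of 10.3, 7.29, 9.15, 13.0 and 11.3 from ES to EHF, and spanned 3.75 kb. The region at 27.6 kb had H3K4me1 folds of 6.94, 6.78, 11.9, 11.9 and 11.3, the highest of the 6 at each of these stages but MS, where the region at 65.6 kb had 7.87. Other inner sites changed with stage. Those at 12.4, 49.2 and 98.8 kb had H3K27ac at ES, MS and LS and at neither OB nor EHF, and the site at 92.7 kb had it at LS, OB and EHF and at neither ES nor MS.

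Dnmt3b, the main de novo enzyme of the early postimplantation embryo (chr 2, plus strand, 38.3 kb), had the plainest pattern. A single region 2.28 kb wide at its start was marked in all 12 lists. The H3K27ac fold there was 4.96, 12.5, 12.2, 19.7, 18.5 and 19.5 from Pre_PS to EHF, and the H3K4me1 fold 2.09, 8.02, 8.06, 12.9, 12.1 and 9.82. The only other peaks in its 73.4 kb territory were 1 H3K27ac peak at OB and 1 H3K4me1 peak at Pre_PS, both at the lowest fold of their list. In all, H3K27ac covered 1.39, 1.84, 1.69, 1.84, 2.06 and 1.88 kb of the territory from Pre_PS to EHF, a narrow range next to that of the other genes with peaks at every stage.

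Dnmt3l, which encodes the catalytically inactive cofactor (chr 10, plus strand, 21.3 kb), had the fewest covered bases of the 8 for both marks at each of the 5 later stages, in the smallest territory (19.7 kb). Its first start overlaps Aire, the autoimmune regulator gene, whose own end lies at the same peak, so this peak cannot be given to one gene. That peak had H3K27ac folds of 6.94, 7.90, 7.76, 6.95 and 5.44 and H3K4me1 folds of 8.69, 4.28, 11.0, 13.9 and 8.21 from ES to EHF, and no peak at Pre_PS. Start 3 had H3K4me1 without H3K27ac, at ES, LS, OB and EHF, with folds of 2.53, 3.70, 3.36 and 3.56. These peaks ranked at 6.38% to 13.9% of their lists. Start 2 had H3K27ac at ES and OB, and H3K4me1 at ES and LS. The start 2 peaks lie in bases nearer to Aire and are not among the counts of Dnmt3l. Of the peak at start 1, only the part nearer to Dnmt3l counts.

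**Figure D3:**
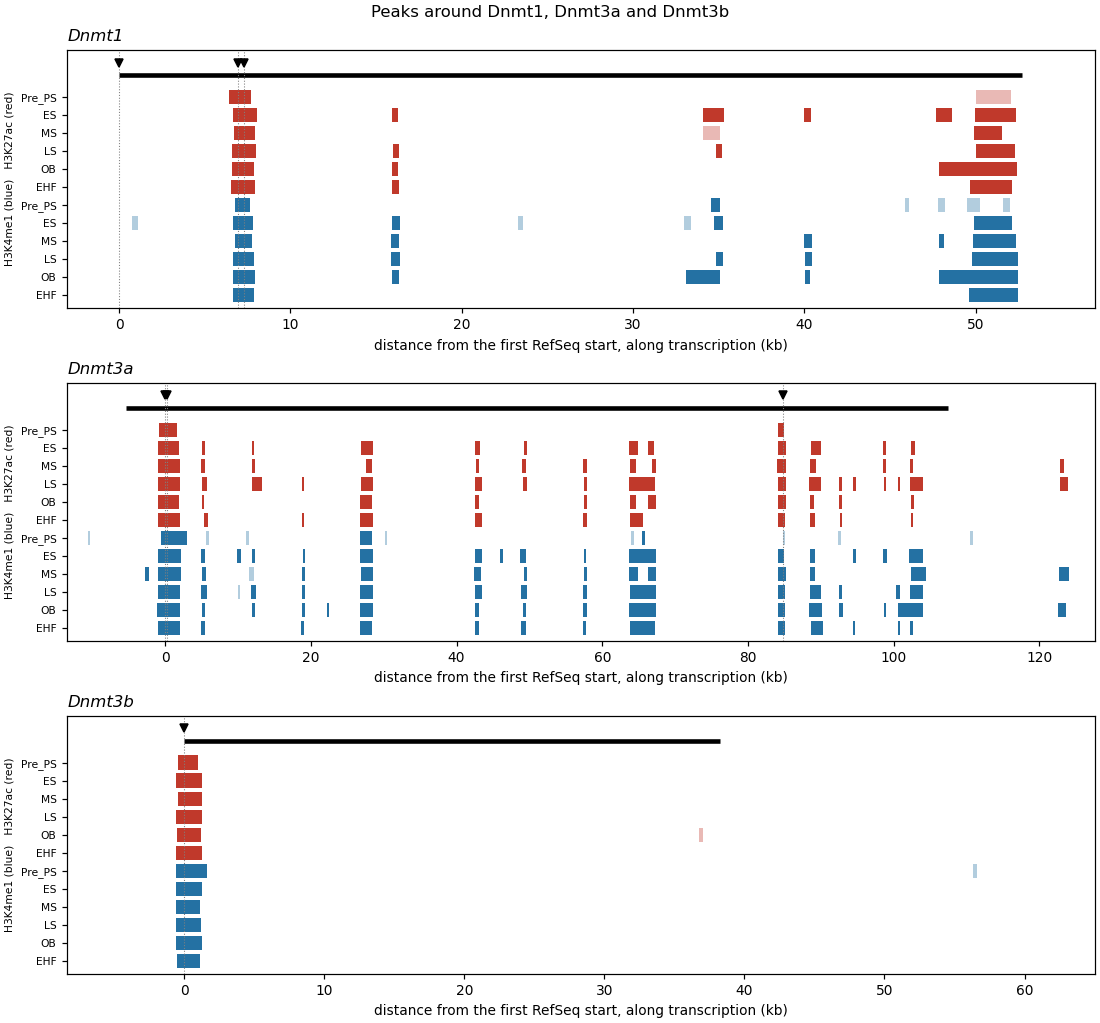
Peaks around Dnmt1, Dnmt3a and Dnmt3b by distance from the first RefSeq start along transcription (x, kb) and by stage (rows, H3K27ac in red above H3K4me1 in blue, pale bars at the lowest fold of their list). Black bars are genes and triangles RefSeq starts: Dnmt1 and Dnmt3b are marked mainly at starts and at the Dnmt1 3′ end, and Dnmt3a along its whole length.

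Tet1, a dioxygenase gene known from pluripotent cells (chr 10, minus strand, 82.9 kb), had 2 regions in all. The one at its start had H3K27ac folds of 15.3, 11.6, 23.0, 17.4 and 25.1 from ES to EHF and H3K4me1 folds of 1.97, 10.3, 6.16, 12.2, 12 and 12.8 from Pre_PS to EHF. The other lies 21.7 kb into the gene and is 0.544 kb wide. It had H3K27ac at OB (fold 4.06) and EHF (fold 7.81) and at no earlier stage. H3K4me1 was there at ES, LS, OB and EHF, with folds of 2.84, 3.45, 3.92 and 5.91, so at ES and LS the site had H3K4me1 alone.

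Tet2 (chr 3, minus strand, 81.5 kb) encodes the dioxygenase known from blood cells, and its territory of 224 kb is the widest of the 8. The H3K27ac fold at its start was 9.51, 9.88, 12.5, 10.2 and 15.3 from ES to EHF, and the H3K4me1 fold 1.97, 6.63, 6.19, 11.1, 10.1 and 9.67 from Pre_PS to EHF. These are middling ranks, 69.1% to 77.1% of peaks for H3K27ac. A site 76.3 kb into the gene had H3K27ac at ES, MS and LS (folds 3.68, 5.26 and 4.10) and at neither OB nor EHF. A second site, centred at -98.3 kb (before the start), had H3K27ac at every stage but EHF, with folds of 3.30 to 4.16. The fold of 3.30, at MS, was the lowest of its list.

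Tet3 (chr 6, minus strand, 94.8 kb), whose enzyme is known for oxidising the paternal genome in the zygote, had the strongest start peaks by the end of the series. Its H3K27ac fold at the listed start was 5.43, 18.7, 14.6, 17.8, 22.5 and 29.6 from Pre_PS to EHF, and its H3K4me1 fold 2.35, 14.1, 8.86, 18.4, 23.9 and 28.0. Within the EHF lists these peaks stood at 97.6% for H3K27ac and 99.9% for H3K4me1. The 5′ end of the gene lies before that start, with no start in the table. A region 4.05 kb wide at this end, centred 13.9 kb before the listed start, was marked in all 12 lists. Its H3K27ac folds were 4.79, 12.4, 9.04, 11.9, 9.50 and 13.0. Inside the gene, regions at 37.8 and 73.9 kb had both marks at all 5 later stages. The region at 73.9 kb spans 6.17 kb, the widest of the 61 regions, with H3K27ac folds of 5.22, 4.57, 4.68, 5.09 and 5.71 from ES to EHF.

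**Figure D4:**
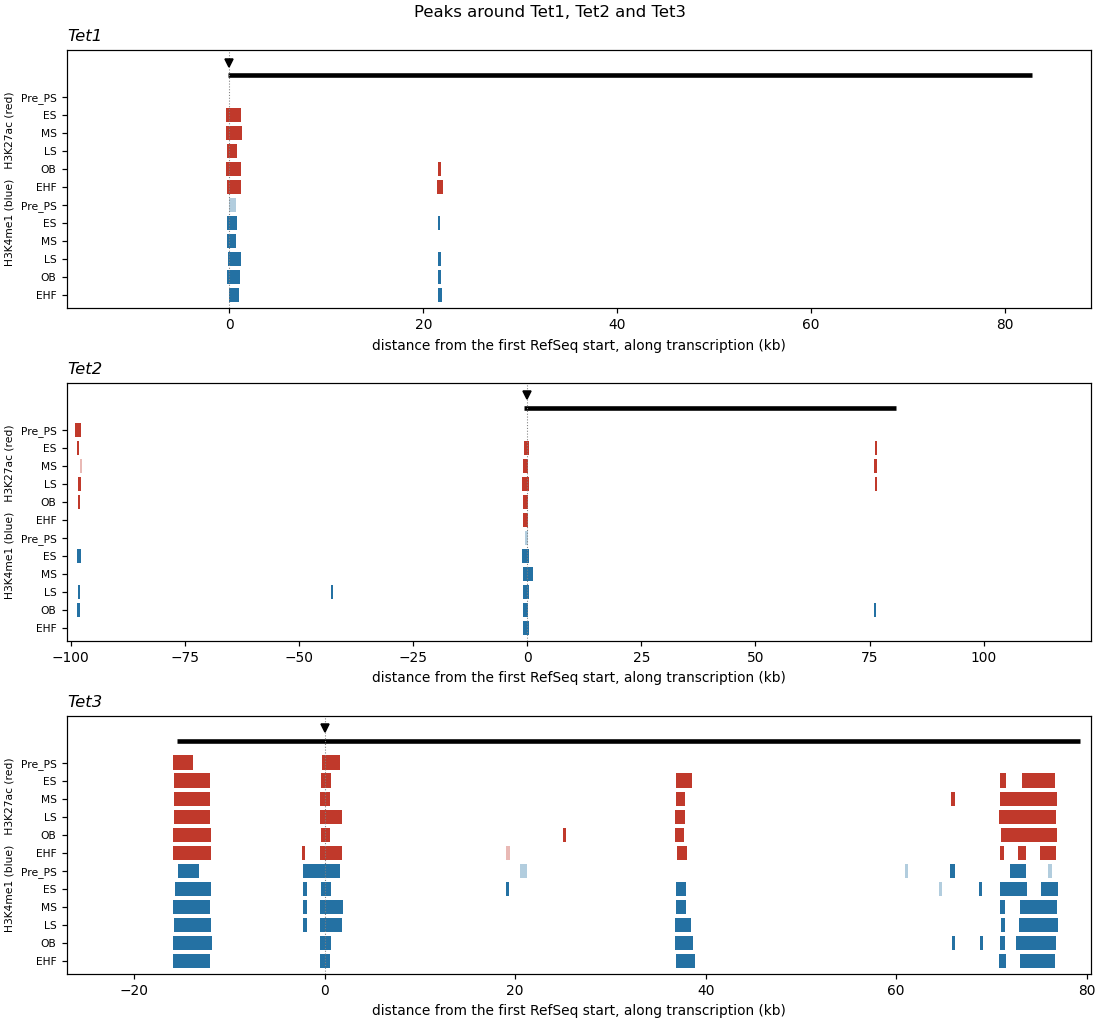
Peaks around Tet1, Tet2 and Tet3 by distance from the first RefSeq start along transcription (x, kb) and by stage (rows, H3K27ac in red above H3K4me1 in blue, pale bars at the lowest fold of their list). Black bars are genes and triangles RefSeq starts: the Tet1 site at 21.7 kb has H3K27ac at OB and EHF alone, the Tet2 site at 76.3 kb at ES, MS and LS alone, and Tet3 has wide regions at its 5′ end and inside the gene at 73.9 kb.

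Pooled over the 8 genes, a larger part of their territory was marked than of the territory of all genes, though not for each gene. H3K27ac covered 2.00%, 5.51%, 4.91%, 6.5%, 5.13% and 4.75% of their joint territory from Pre_PS to EHF, against 0.830%, 2.38%, 2.08%, 2.44%, 2.12% and 2.12% of the territory of all genes. H3K4me1 covered 3.75%, 6.03%, 5.77%, 6.39%, 6.74% and 5.23%, against 1.29%, 2.81%, 2.54%, 2.96%, 2.93% and 2.29%. Tet1 and Tet2 lay below the value of all genes for both marks at the 5 later stages. Dnmt3b did so for H3K4me1 at these stages, and Dnmt3l for H3K27ac at MS. Uhrf1 led, with H3K27ac on 17.9% to 26.7% of its territory over the 5 later stages. Next came Dnmt3a (7.32% to 13.9%), Tet3 (9.97% to 12.2%) and Dnmt1 (6.51% to 11.2%), whose ranges overlap. Dnmt3b followed at 2.30% to 2.81%, then Tet1 at 0.994% to 1.86% and Tet2 at 0.472% to 1.14%, which overlap each other. Dnmt3l ranged from 0% to 2.88%, with the 0 at MS, where its one peak lies in bases nearer to Aire. H3K4me1 gave a like order, except that Dnmt3l (4.36% to 5.00%) lay above Dnmt3b (2.22% to 2.48%). A wide territory with few genes around it, as for Tet2, lowers this percentage.

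To compare stages, the covered bp of each territory were divided by the covered Mb of the list, and OB and EHF were set against ES and MS. A gene was called higher where both late values lay above both early ones, and lower in the reverse case. For H3K27ac, 2 of the 8 genes were higher (Dnmt3b and Tet1; 20.2% of 17147 genes were) and 2 were lower (Uhrf1 and Tet2; 12.8% were). For H3K4me1, 2 were higher (Dnmt3a and Tet1; 14.4% of 17830 were) and 1 was lower (Tet2; 13.3% were). Counts this near the background say little of the 8 genes as a set. The median difference over the 8 was 7.33 bp per Mb for H3K27ac and 4.99 for H3K4me1, against 0.892 and 0.462 over all genes. The quartiles over all genes were -4.66 and 5.73 for H3K27ac, and -4.51 and 4.65 for H3K4me1. The members also had larger shares, with a median of 98.5 for H3K27ac at ES against 26.2, so differences in this unit are not on an equal footing. In covered bp, the H3K27ac differences ran from -1066 for Uhrf1 to 325 for Tet1.

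Tet1 was the gene called higher for both marks. Its H3K27ac share was 49.7 bp per Mb at OB and 54.2 at EHF, against 35.8 at ES and 45.6 at MS. It did not climb stage by stage, since LS stood at 24.9. Its H3K4me1 share was 32.3 at OB and 38.2 at EHF, against 26.4 at ES and 20.8 at MS. The late H3K27ac excess rested on the site at 21.7 kb, which had H3K27ac at OB (304 bp) and EHF (544 bp) alone. The H3K27ac peak at the start covered 1503 bp at OB and 1419 at EHF, against 1482 at ES and 1638 at MS. The H3K4me1 difference of 11.7 bp per Mb kept its sign under 10 of 10 alternatives (7.08 to 14.6), and the H3K27ac difference of 11.3 turned to -1.29 when each list was cut to the same number of peaks. Omission of single libraries aside, the H3K4me1 call was kept in 7 of 7 alternatives and the H3K27ac call in 5 of 7.

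Tet2 was called lower for both marks, but the H3K4me1 call was kept in only 1 of 7 alternatives, that without peaks at the lowest fold. Its H3K27ac share was 43.1 bp per Mb at OB and 29.2 at EHF, against 49.3 at ES and 63.2 at MS. Its H3K4me1 share was 44.7 at OB and 32.6 at EHF, against 47.2 at ES and 48.2 at MS. The start peak stayed, while the H3K27ac site at 76.3 kb was absent at OB and EHF and the site before the start absent at EHF. With the same number of peaks per list the H3K27ac difference of -20.1 became 2.47, and with the upper 50% of peaks 1.32.

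Uhrf1 had an H3K27ac share of 117 bp per Mb at OB and 113 at EHF, against 148 at ES and 122 at MS, a difference of -19.6 that became 9.35 with the same number of peaks per list and 5.18 with the upper 50%. The Uhrf1 call was kept in 4 of 7 alternatives. Dnmt3b had an H3K27ac share of 56.7 at OB and 51.9 at EHF, against 44.4 at ES and 47.1 at MS. OB included the lone weak peak far from its start. With Pre_PS and ES as the early pair the Dnmt3b difference of 8.49 became -16.7, since the Pre_PS share was 97.5. Dnmt3a had an H3K4me1 share of 388 at OB and 378 at EHF, against 351 at ES and 370 at MS. That difference of 22.4 held its sign under 10 of 10 alternatives (12.8 to 32.1), but the call was lost, with overlapping stages, in 3 of 7: the upper 50% of peaks, a territory of 50 kb and covered bp.

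The values of Dnmt1, Dnmt3l and Tet3 overlapped between late and early stages for both marks. Tet3 H3K27ac shares were 330 at OB and 304 at EHF, against 259 at ES and 340 at MS. Dnmt1 H3K27ac shares were 169 at OB and 119 at EHF, against 163 at ES and 109 at MS, and its H3K4me1 share was also highest at OB, with 168. The OB lists held 1 long peak over the Dnmt1 3′ end in each mark. Dnmt3a H3K27ac was highest at LS, with 465 bp per Mb, against 228 to 305 at the other 5 stages. It exceeded 99.6% of genes at LS and 97.5% to 98.9% at the others. LS entered no contrast, so no alternative recomputed this value. The LS list covered the most bases of the 6 H3K27ac lists (42.1 Mb), with the lowest floor of the 5 later ones (fold 3.01). Dnmt3a H3K27ac peaks at LS were 17 in number over 19.6 kb, and the inner region at 65.6 kb was 3.57 kb wide there. H3K4me1 on Dnmt3a showed no such step (351 to 388 over all 6 stages).

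**Figure D5:**
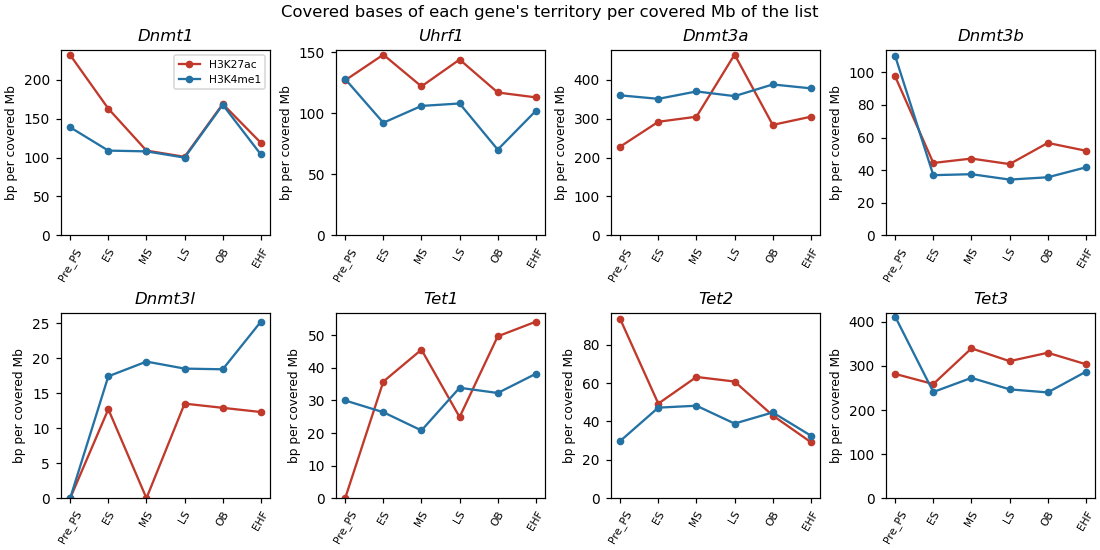
Covered bp of each gene's territory per covered Mb of the list (y, own scale for each gene, from 0) at the 6 stages (x), 1 library per point, H3K27ac in red and H3K4me1 in blue. Dnmt3a H3K27ac stands out at LS with 465 bp per Mb, Tet1 H3K27ac ends at 54.2, Tet2 H3K27ac ends at 29.2, and several genes stand apart at Pre_PS, where libraries were shallow.

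Merging the peaks of all 12 lists gave 61 regions in the 8 territories, of which 39 bore both marks at some stage, 2 H3K27ac alone and 20 H3K4me1 alone. In 12 lists, 8 regions were present, and 19 were present in a single list. Regions with both marks at all 5 later stages numbered 19 of 61, against 26.1% of 81287 regions genome-wide. Those over 1 kb from gene ends and starts numbered 8 of 47, 6 in Dnmt3a and 2 in Tet3, against 11.1% of 61240. H3K27ac was present at OB and EHF and absent at ES and MS in 3 of 61 regions (1.44% of all regions), 1 each in Uhrf1, Dnmt3a and Tet1. The reverse held in 5 of 61 (1.43% of all regions), 3 in Dnmt3a and 1 each in Dnmt1 and Tet2. The Dnmt1 region is counted through an MS peak at the lowest fold of its list. For H3K4me1 the counts were 0 of 61 for late presence alone (1.16% of all regions) and 1 of 61 for early presence alone (2.21%), the Uhrf1 site at 4.98 kb.

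Outer gene ends gave fewer marked members than starts did. An H3K27ac peak lay within 1 kb of an end of 3 of the 8 genes at all 6 stages (Uhrf1, Dnmt3b and Tet3; 41.4% of 21627 genes). An H3K4me1 peak did so for 6, all but Dnmt3a and Dnmt3l (45.7% of all genes). With peaks at the lowest fold of each list left out, 3 remained (32.8% of all genes). Dnmt3a, with both marks at its 3 starts at all 6 stages, had no peak of either mark within 1 kb of an outer end in any list.

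Both marks covered largely the same bases of these genes. The bases with both marks made up 0.579, 0.587, 0.768, 0.660 and 0.670 of the bases with either mark from ES to EHF, against 0.610, 0.594, 0.670, 0.621 and 0.683 genome-wide. Dnmt3b was the most congruent, with 0.986, 0.829, 0.952, 0.821 and 0.868. Dnmt3a had 0.566, 0.548, 0.766, 0.515 and 0.602, since H3K4me1 covered more of it than H3K27ac at each stage but LS. At OB, 19.8 kb of Dnmt3a bore H3K4me1 and 10.3 kb H3K27ac, and at LS 18.4 kb bore H3K4me1 and 19.6 kb H3K27ac.

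Of 40 other genes of the pathway, 6 were higher and 2 lower for H3K27ac at OB and EHF, and 5 were higher and 1 lower for H3K4me1. Over all genes 20.2% and 12.8%, then 14.4% and 13.3%, were called in these directions. The median difference was 2.12 bp per Mb for H3K27ac and 1.92 for H3K4me1. Among 9 readers of CpG, 2 were higher for H3K27ac. Mbd3, a subunit of the NuRD deacetylase complex, had 129 bp per Mb at OB and 148 at EHF, against 80.8 at ES and 66.6 at MS. Mbd2, which binds methylated CpG, had 44.5 and 76.4, against 34.1 and 30.3. Among 12 genes of base excision and demethylation, 3 were higher for H3K27ac and 2 for H3K4me1. The DNA glycosylase gene Neil1 had 79.5 bp per Mb of H3K27ac at OB and 21.9 at EHF, against 11.4 at ES and 11.9 at MS. Mbd4, another glycosylase gene, had an H3K4me1 share of 25.8 at OB and 17.1 at EHF, against 9.43 at ES and 14.4 at MS. Of 7 alternatives, the call was kept in 6 for Mbd3, 5 for Neil1 and 4 each for Mbd2 and Mbd4.

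The 2 genes lower for H3K27ac, Ahcy and Mat2b, are both on the list for S-adenosylmethionine and 2-oxoglutarate supply. Both calls were lost with the upper 50% of peaks and with equal numbers of peaks. Ahcy, which clears S-adenosylhomocysteine, had 27.6 bp per Mb at OB and 27.2 at EHF, against 40.7 at ES and 88.6 at MS. Mat2b, a regulatory subunit of the enzyme that makes S-adenosylmethionine, had 30.5 at both OB and EHF, against 40.4 at ES and 39.8 at MS. The 3 remaining genes of that list overlapped between stages. Of the TET partners, the CXXC genes Cxxc5 and Cxxc4 were higher for H3K4me1. Cxxc5 had 614 bp per Mb at OB and 699 at EHF, against 539 at ES and 571 at MS, and Cxxc4 had 47.2 and 58.2, against 32.4 and 44.7. Zbtb38, a reader of methylated CpG, was lower for H3K4me1, with 47.7 at OB and 43.6 at EHF, against 57.6 at ES and 64.0 at MS. The calls of Cxxc5 and Cxxc4 were kept in 7 of 7 alternatives and that of Zbtb38 in 6. Of the 11 partners and regulators of the methyltransferases, 1 was higher for each mark and none was lower for either.

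The genes whose profile over the 12 libraries was most like that of a methylation gene were found among 10031 genes with at least 1 kb covered on average in each mark, each share being divided by the gene's mean for that mark. They are given as descriptions, since the points share libraries, depth and, at Pre_PS, a shallow list. Tet1 was closest to Hoxb3, with r = 0.935 (0.818 over the 10 libraries without Pre_PS). Dnmt1 was closest to Rflna (0.901 and 0.799) and Uhrf1 to Trim52 (0.823 and 0.696). Dnmt3a was closest to 4930447C04Rik (0.892 and 0.849), and Dnmt3b to Minpp1 (0.996 and 0.807). Tet2 was closest to Tspan17 (0.933 and 0.836), and Tet3 to Lmx1a (0.959 and 0.779). Dnmt3l itself missed the 1 kb limit. The values for Dnmt3b and Tet3 dropped most without Pre_PS, where both genes had their highest H3K4me1 shares (110 and 412 bp per Mb). None of the named genes borders the gene it resembles.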

How the data were processed

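Members and gene lists were chosen with earlier results of these data known. Bowtie2, Picard, MACS2, deepTools and the build mm10 are named in the submitters' processing notes, with versions, settings and cell numbers not given in the sources used here. For each stage and mark the authors deposited 1 list of broad peaks. The deposited fold is the authors' ratio of signal to local background for each peak. The −log10 p and −log10 q of a peak were deposited by the authors, and −log10 p served to solve pileup and background at the lowest fold (tolerance 0.001). The deposited score was not used. Total fragments are not given, so the precision of single values is unknown.

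Peaks on chromosomes 1 to 19 and X were kept, and 481 others were left out. Territories, shares (covered bp per covered Mb) and merged regions were computed with Python 3.11.15, numpy 2.4.6 and pandas 2.3.3, and the code was tested on simulated data. Genes, starts and promoter sequences were those of RefSeq GRCm38.p6, with all 8 genes matched by symbol. The genes named were the 8 members, per mark up to 3 pathway genes with the largest called difference in each direction, and the genes with the highest Pearson r to a member, of which the first is given. Of 41 pathway genes listed, 40 were found. With 1 library per group no test between stages was made. Alternatives covered stricter peaks, equal numbers of peaks, omission of peaks at the lowest fold and covered bp. They also covered other territories, another early pair, 500 bp at gene ends and omission of each ES, MS, OB or EHF library.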

Additional observations from a re-analysis of the deposited data

How the results depend on the processing

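No paired analysis was possible because each stage and mark had 1 library. Depth limits every presence call, most of all at Pre_PS, where the weakest peaks hold 1 or 2 fragments. The counts of called genes are small, so a change in 1 gene moves them. Of 98 values recomputed for counts of genes or starts, 59 stayed within 1.5 times the value reported. The causes of the changes below were not tested.

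With the upper 50% of each list, no member was higher or lower for H3K27ac (0 and 0) and 0 were lower for H3K4me1, the Uhrf1 and Tet2 H3K27ac differences turned to 5.18 and 1.32 bp per Mb, 1 pathway gene was lower for H3K27ac, and 9 were higher and 4 lower for H3K4me1. With lists cut to equal numbers of peaks, 0 members and 0 pathway genes were lower for H3K27ac, 0 members and 2 pathway genes were lower for H3K4me1, and the H3K27ac differences of Uhrf1, Tet1 and Tet2 turned to 9.35, -1.29 and 2.47. Without peaks at the lowest fold, 1 member was lower for H3K27ac (12.8% of all genes were). In that setting 3 members had H3K4me1 at a gene end at all 6 stages (32.8% of all genes had). In covered bp, 7 pathway genes were lower for H3K27ac (20.5% of all genes were). For H3K4me1, 10 were higher and 3 lower (11.1% and 16.2% of all genes were). With a territory of 50 kb, 1 member was higher and 0 lower for H3K4me1 (14.6% and 12.5% of all genes were). With the gene body and 5 kb around it, 0 members were lower for H3K4me1 (11.0% of all genes were). With Pre_PS and ES as the early pair, 0 members and 2 pathway genes were lower for H3K4me1, the Dnmt3b H3K27ac difference was -16.7 and the Tet2 H3K4me1 difference 0.128.

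Leaving out 1 library leaves 1 stage in an arm, so that more genes are called. Then 3 to 4 members were higher and 2 to 3 lower for H3K27ac. Over all genes, 32.8% to 45.4% were higher and 22.4% to 36.5% lower. For H3K4me1, 2 to 5 members were higher and 1 to 4 lower. Over all genes, 25.9% to 43.1% were higher and 24.6% to 35.3% lower. Of the pathway genes, 9 to 26 were higher and 3 to 15 lower for H3K27ac, and 9 to 25 higher and 3 to 15 lower for H3K4me1. The same shares of all genes stand beside these counts.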
